A study of Mus musculus with 22 samples.

Results

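The genes for the receptors of glutamate, GABA and glycine were examined in RNA-seq of mouse forebrain at embryonic day E13.5. They were picked by symbol from a table of 24421 genes. Every row was taken whose name starts with *Gria*, *Grik*, *Grid*, *Grin*, *Grm*, *Gabra*, *Gabrb*, *Gabrg*, *Gabbr* or *Glra* and a digit, together with *Glrb*. This gave 47 rows. Of these, 45 are receptors or receptor subunits, and 40 of the 45 are described here. The remaining 2 rows are *Grin1os*, an antisense RNA at the *Grin1* locus, and *Grid2ip*, which encodes a scaffold protein of synapses.

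The libraries came from 3 *Prdm16* knockout (KO) and 3 control forebrains. PRDM16 is a transcription factor of the radial glia, the progenitor cells of the cortex. The KO embryos are labelled homozygous mutant. The mutant lines of the study are the gene trap alleles *Prdm16* cGT and *Prdm16* cGTreinv, kept by outcrossing with the FVB/NJ line, and the labels do not say which of them these embryos carried. No Cre driver is named for these libraries, so nothing in the labels restricts the mutation to the cortex. The controls are labelled heterozygous or wild-type littermates, while the methods call them wild type. The labels name the forebrain as the tissue and the methods the cortex. No treatment was given. The libraries are named by the animal numbers of the count table, F727, F728 and F731 for KO and F722, F724 and F725 for control. Values below are always given in that order.

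Glutamate opens 3 kinds of channel, the AMPA, kainate and NMDA receptors, and also acts on metabotropic receptors that signal through G proteins. GABA and glycine open chloride channels, the GABA-A and glycine receptors, and GABA also acts on the G protein-coupled GABA-B receptor. The channels are built from several subunits of 1 family, so which subunit genes a tissue expresses sets which receptors it can make. In the embryonic forebrain these receptors appear before most synapses, and GABA and glycine, acting on cells rich in chloride, tend to depolarize them.

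The forebrain expressed most of these genes. At a level of at least 1 CPM (counts scaled to the size of the library) in every control library, 30 of the 40 receptor genes described were expressed, and the same bound was met by 31 of 40 in the KO libraries. The 10 that missed it in control were *Gabra6*, *Gabrb1*, *Gabrg3*, *Glra1*, *Glra3*, *Glra4*, *Grin2a*, *Grin2c*, *Grm3* and *Grm6*. The bound takes no account of gene length, so it does not order the genes. *Grm3* missed it only in control F725, at 0.985 CPM. Per kilobase of exon, *Grm3* was at 0.405 CPM in control, above *Gabrg1* (0.239), *Grm8* (0.194) and *Grin2b* (0.0874), which met the bound. None of the 40 passed the adjusted threshold between KO and control. The differences with the smallest *P*-values were those of *Gabra2* and *Gabrg1*, neighbouring GABA-A subunit genes on chromosome 5, where every KO library lay above every control.

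One library stood apart from the others. The totals were 36046267, 41140614 and 16638433 counts in KO and 33670050, 43066648 and 28569526 in control. KO F731, the shallowest, had counts for 22991 genes, against 17795 to 18320 in the other libraries, and it was separated from them by the first principal component (62.9% of the variance). The ribosomal RNA precursor *Rn45s* made up 7.39% of its counts, against 0.224% to 2.43% elsewhere. Genes of odorant and vomeronasal receptors, which forebrain is not known to use, were looked up as a background, and of 1441 such genes 82.2% had a count in KO F731 and 2.91% to 5.27% in the other libraries. Blood genes, chiefly globins, summed to 5160 CPM in KO F731 and to 1436 to 1803 CPM in the others. All 6 markers of forebrain identity were expressed, and the 5 hindbrain and cord markers summed to 2.69 CPM in KO F731 and to 0.102 to 0.377 CPM in the other libraries. The targeted gene *Prdm16* stood at 9.60, 6.58 and 6.82 CPM in KO and at 58.2, 45 and 37.8 in control, so its levels followed the labels. Its adjusted *P*-value was 0.0536 in edgeR. Once the libraries had been compared, the tests were also run without KO F731, and the values without it stand beside those it moved.

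CPM values are normalized by the TMM method, which corrects the depth of each library. Levels of different genes are compared only per length, as TMM-normalized CPM per kilobase of exon, abbreviated CPM/kb. Errors are s.d. over 3 libraries. Log2 fold changes are KO against control, with a standard error (s.e.), from edgeR's quasi-likelihood test. Since the tissue is a mixture, fewer cells of a type and less RNA per cell cannot be told apart.

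Of the glutamate-gated channels, the kainate genes had the highest summed level per length. It was 45.4 to 52.4 CPM/kb in control, against 26.5 to 32.2 for the AMPA genes. Gene by gene this did not hold, as *Grik2*, *Grik1* and *Grik4* were below *Gria1* and *Gria2*. *Grik5*, whose product GluK5 forms working channels only together with other kainate subunits, had the highest level of the 40 receptor genes at 30.3±0.298 CPM/kb in control. Its CPM was 147, 167 and 178 in KO and 156, 156 and 158 in control. The 3 control libraries were nearly equal, and the KO values fell on both sides of them. *Grik3*, which encodes the low-affinity subunit GluK3, stood at 11.7±2.98 CPM/kb in control. Its CPM was 88.8, 94.3 and 56.0 in KO and 77.1, 108 and 130 in control, with KO F731 the lowest library (log2 fold change -0.39, s.e. 0.24, and -0.20 without KO F731). *Grik2*, for the subunit GluK2, stood at 4.89±0.0973 CPM/kb. Its CPM of 63.8, 64.4 and 66.3 in control lay inside the KO range of 51.7 to 75.9. *Grik1* and *Grik4* were lower, at 1.43 and 0.610 CPM/kb. *Grik5* made up 62.1% of the summed kainate level in control, *Grik3* 23.7% and *Grik2* 10.02%.

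The AMPA receptor genes, which serve most fast excitation in the mature brain, were all expressed. *Gria2* encodes GluA2, the subunit that makes the channel impermeable to calcium once its transcript is edited. It was at 11.3±1.67 CPM/kb in control. Its CPM was 168, 143 and 82.4 in KO and 167, 204 and 154 in control. KO F731 was far below the other libraries, and the remaining KO values lay within or just under the control range (log2 fold change -0.41, s.e. 0.25, and -0.17 without KO F731). *Gria1*, for GluA1, was at 10.8±0.997 CPM/kb, and its CPM was 65.2, 48.6 and 51.2 in KO against 59.8, 71.8 and 64.3 in control. *Gria4* followed at 4.65±0.823 CPM/kb, with 34.5, 25.6 and 22.6 CPM in KO against 24.0, 29.6 and 34.3 in control. For both genes the groups overlapped. *Gria3* was the lowest AMPA gene at 2.16±0.269 CPM/kb and the only one whose groups did not overlap, at 18.7, 17.1 and 17.1 CPM in KO and 20.4, 24.3 and 19.2 in control. The gap was narrow (log2 fold change -0.27, s.e. 0.13, unadjusted *P*=0.0675, edgeR). All 4 AMPA genes had log2 fold changes below 0 over all 6 libraries, with a median of -0.26. Without KO F731 the median was -0.19, and *Gria4* was above 0, at 0.037. The median over all 15027 genes tested was -0.0037. Some of the marker lists lay on the same side. The 4 of excitatory cortical neurons were all below 0 (median -0.22, and -0.21 without KO F731), and their summed level was 1018 to 1110.3 CPM in KO and 1033 to 1431 in control. The 6 of the GABAergic lineage were all below 0 as well (median -0.25), with sums of 398 to 558 CPM in KO and 440.2 to 729 in control. Without KO F731, 5 of the 6 were below 0 (median -0.17). The 2 of intermediate progenitors had a median of -0.31, and of -0.15 without KO F731, with sums of 304 to 464 CPM in KO and 421 to 563 in control. Of the 3 markers of Cajal-Retzius cells, 2 were above 0 and 1 below (median 0.067, and -0.086 without KO F731). Of the 3 of thalamus, 2 were above 0 and 1 below (median 0.10, and 0.11 without KO F731). Of the 5 of radial glia, 2 were above 0 and 3 below (median -0.031, and 0.057 without KO F731). Of the 6 of forebrain identity, 1 was above 0 and 5 below (median -0.052, and 0.074 without KO F731). The sums overlapped between groups for each of these lists, and their part in the AMPA values was not tested.

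With the GENCODE exon lengths, *Gria1* and *Gria2* held 37.4% and 38.9% of the summed AMPA level in control. *Gria2* thus took 35.5% to 40.8% of it in every control library, 37.3% and 40.0% in KO F727 and KO F728, and 27.7% in KO F731. These shares depend on the lengths. With exon lengths from RefSeq, *Gria2* stood at 15.5 CPM/kb in control and *Gria1* at 10.9.

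NMDA receptors need GluN1, encoded by *Grin1*, and a second kind of subunit that binds glutamate (*Grin2a* to *Grin2d*) or glycine (*Grin3a* and *Grin3b*). *Grin1* was the highest of the family at 1.48±0.226 CPM/kb in control. Its CPM was 15.6, 10.6 and 16.7 in KO and 12, 14.9 and 16.2 in control. The exons of *Grin1* overlap those of the antisense *Grin1os*, and no source used here says whether the counting used the strand. *Grin3b* stood at 1.06±0.0467 CPM/kb, with 2.86, 3.32 and 4.89 CPM in KO and 3.48, 3.64 and 3.33 in control. Its exons overlap those of *Tmem259*. *Grin3a* stood at 0.736±0.123 CPM/kb, with 9.33, 6.91 and 9.43 CPM in KO and 7.52, 9.06 and 10.5 in control. The groups overlapped for all 3 genes.

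The glutamate-binding NMDA subunits were low. *Grin2d*, known as an embryonic subunit, was the highest of them at 0.548±0.106 CPM/kb in control, and its groups overlapped (log2 fold change -0.22, s.e. 0.22). *Grin2b*, the main GluN2 subunit of embryonic cortical neurons, stood at 0.0874±0.0233 CPM/kb, with counts of 76, 46 and 148 in KO and 52, 116 and 71 in control. The largest count thus came from the shallowest library. *Grin2c* had counts of 11, 24 and 32 in KO and 18, 23 and 7 in control. *Grin2a*, known mainly after birth, had 4, 3 and 12 counts in KO and 2, 5 and 3 in control, too few for the test. In all, *Grin1* and *Grin3b* made up 36.9% and 26.7% of the summed NMDA level in control, with the GENCODE exon lengths. These shares depend on the lengths. With exon lengths from RefSeq, *Grin1* stood at 3.29 CPM/kb, and *Grin3a*, at 1.17, was above *Grin3b*, at 1.06.

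The delta receptors bind cerebellins and organize synapses. *Grid1* stood at 1.84±0.420 CPM/kb in control, with 12.9, 9.55 and 9.16 CPM in KO and 8.65, 10.6 and 13.6 in control, and the groups overlapped.

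Of the 7 metabotropic glutamate receptor genes described, 5 were expressed in control. *Grm2* had the highest level at 2.34±0.127 CPM/kb. It encodes mGluR2, which lowers cyclic AMP. Its CPM was 10.3, 11.5 and 11.6 in KO and 11.7, 10.7 and 11.9 in control, a narrow range with no gap between the groups. *Grm5*, for the Gq-coupled mGluR5 of the progenitors and young neurons, had 1.49±0.327 CPM/kb, with 16.9, 10.6 and 10.7 CPM in KO and 12.6, 19.0 and 14.1 in control. *Grm4*, a member of the group found on nerve endings, had 1.48±0.267 CPM/kb, with 7.89, 8.63 and 10.2 CPM in KO and 7.61, 8.35 and 10.7 in control. *Grm7*, *Grm3* and *Grm8* stood at 0.661, 0.405 and 0.194 CPM/kb, with overlapping groups. *Grm3* had a log2 fold change of 0.39 (s.e. 0.40), and of 0.0021 without KO F731. *Grm6*, the receptor of retinal ON bipolar cells, had counts of 1, 3 and 27 in KO and 1, 4 and 0 in control. Most of its reads came from KO F731.

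**Figure D1:**
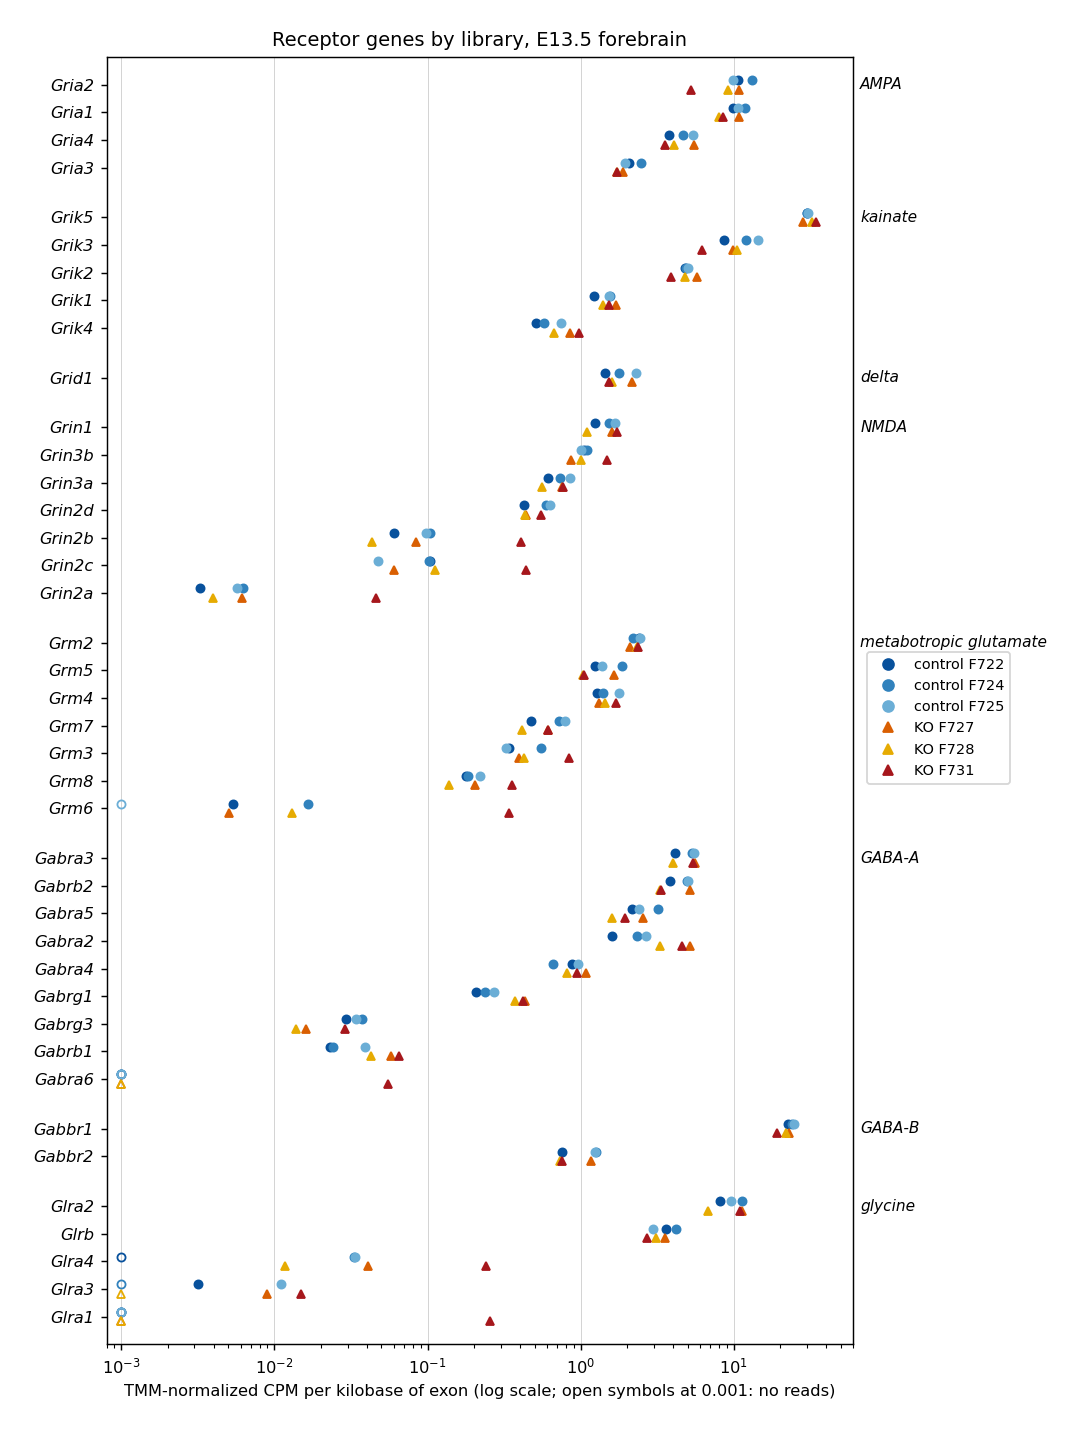
TMM-normalized CPM per kilobase of exon on a log axis for the 40 receptor genes described, ordered by family and control mean; circles are the 3 control libraries, triangles the 3 KO libraries, and open symbols mark libraries with no reads. *Grik5* and *Gabbr1* lie to the right of all others, and the dark red triangles of KO F731 stand to the right of the other libraries in the low genes such as *Grin2b*, *Grin2c* and *Grm6*.

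GABA-A receptors are rings of alpha, beta and, mostly, gamma subunits. Of the 9 genes described, *Gabra3*, a fetal alpha subunit, had 4.97±0.742 CPM/kb in control, with 22.0, 15.9 and 21.1 CPM in KO and 16.1, 20.8 and 21.5 in control. The KO libraries spread across the control range. *Gabrb2*, *Gabra5* and *Gabra4* stood at 4.61, 2.60 and 0.832 CPM/kb in control, and their groups overlapped. The CPM of *Gabrb2* was 32.8, 20.8 and 21.4 in KO and 24.6, 31.6 and 31.9 in control. That of *Gabra5* was 7.65, 4.74 and 5.78 in KO and 6.45, 9.55 and 7.17 in control. *Gabra6*, the subunit of cerebellar granule cells, had 0 counts in every library except KO F731, which had 2. A count of 0 allows up to 0.0697 to 0.105 CPM in the control libraries (3 counts per library, counting error only). Unlike the other CPM values, these bounds use the total counts without the TMM factor.

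GABA-B receptors are pairs of GABBR1, which binds GABA, and GABBR2, which couples to the G protein. *Gabbr1* was second only to *Grik5* at 23.8±1.04 CPM/kb in control. Its CPM was 179, 171 and 150 in KO and 176, 186 and 192 in control, and KO F731 was the lowest library. *Gabbr2* was at 1.08±0.282 CPM/kb, with 7.87, 4.93 and 5.03 CPM in KO and 5.05, 8.37 and 8.26 in control. *Gabbr1* held 95.7% of their summed level in control.

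Glycine receptors contain alpha subunits and the beta subunit, which ties them to the scaffold gephyrin. *Glra2*, the alpha subunit of the fetal brain, stood at 9.65±1.58 CPM/kb in control. Its CPM was 35.9, 21.5 and 34.7 in KO and 25.6, 35.5 and 30.1 in control. *Glrb* stood at 3.59±0.595 CPM/kb, with 16.4, 14.4 and 12.7 CPM in KO and 16.8, 19.4 and 13.9 in control. The remaining alpha genes had few or no reads. *Glra1*, the subunit of the adult spinal cord and brainstem, had 0 counts in 5 libraries and 9 in KO F731. *Glra4* had 3, 1 and 7 counts in KO and 0, 3 and 2 in control, and *Glra3* had 3, 0 and 2 in KO and 1, 0 and 3 in control. *Glra2* made up 72.7% of the summed level of the family in control and *Glrb* 27.1%, with the GENCODE exon lengths. With exon lengths from RefSeq, they stood closer, at 8.29 and 5.14 CPM/kb.

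Ordered by control mean per length, the genes described ran from *Grik5*, *Gabbr1*, *Grik3*, *Gria2* and *Gria1* through *Glra2*, *Gabra3*, *Grik2* and *Gria4* to *Gabrb2* at place 10. Most neighbours in this order were not separated. The ranges of the control libraries did not overlap between *Grik5* and *Gabbr1*, *Gabbr1* and *Grik3*, *Glra2* and *Gabra3*, *Grin3b* and *Gabra4*, *Grm3* and *Gabrg1*, *Grm8* and *Grin2b*, and *Grin2c* and *Gabrg3*. Every other pair of neighbours overlapped. With exon lengths from RefSeq, *Gabbr1* took the first place and *Grik5* the second, at 41.2 and 40.5 CPM/kb. Lower places moved as well with these lengths. *Gria2* was at place 3 and *Grik3* at 4, *Glrb* rose to place 8, and *Gabra3* and *Gabrb2* fell to places 9 and 12.

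Over the 34 receptor genes described that had enough counts for the test, the log2 fold change was above 0 for 14 and below 0 for 20. Its median was -0.034, against -0.0037 for all genes tested. Without KO F731, the counts were 12 and 22, and the median was -0.11. None of them passed an adjusted *P*-value of 0.05 in edgeR, where 0 of 15027 genes (0%) did, and the lowest adjusted *P*-value among the receptors was 0.863. At an unadjusted *P*-value under 0.05 there were 2, *Gabra2* and *Gabrg1*, against 1.92% of all genes tested. DESeq2 passed 18 of 15651 genes (0.115%) at the adjusted threshold, none of them among the receptor genes described, and 3 receptor genes (*Gabra2*, *Gabrg1* and *Grm6*) at the unadjusted one, against 3.41% of all genes. *Grm6* was not among those at this threshold without KO F731. Every KO library lay above every control in 3 receptor genes, *Gabra2*, *Gabrg1* and *Gabrb1* (3.86% of all genes tested), and below in 2, *Gria3* and *Gabrg3* (3.55%). The groups thus did not overlap in 5 of the 34, and in 7.41% of all genes tested.

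Leaving out KO F727 raised the number of receptor genes with an unadjusted *P*-value under 0.05 from 2 to 7 in edgeR and from 3 to 6 in DESeq2. The share of all genes at this threshold rose as well, from 1.92% to 6.56% in edgeR and from 3.41% to 7.82% in DESeq2. None passed the adjusted threshold in either fit. Limma-voom with sample quality weights also had 7 at the unadjusted threshold, against 7.25% of all genes, and none at the adjusted one, which 0.0799% of all genes passed.

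The symbol rule also took *Grin1os*, at 3.99, 2.69 and 2.62 CPM in KO and 2.58, 3.82 and 4.99 in control, and *Grid2ip*, at 0.578, 1.04 and 2.82 CPM in KO and 0.726, 1.14 and 0.747 in control. The groups overlapped for both. *Grid2ip* was highest in KO F731, and its log2 fold change went from 0.67 (s.e. 0.58) to -0.12 without this library.

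**Figure D2:**
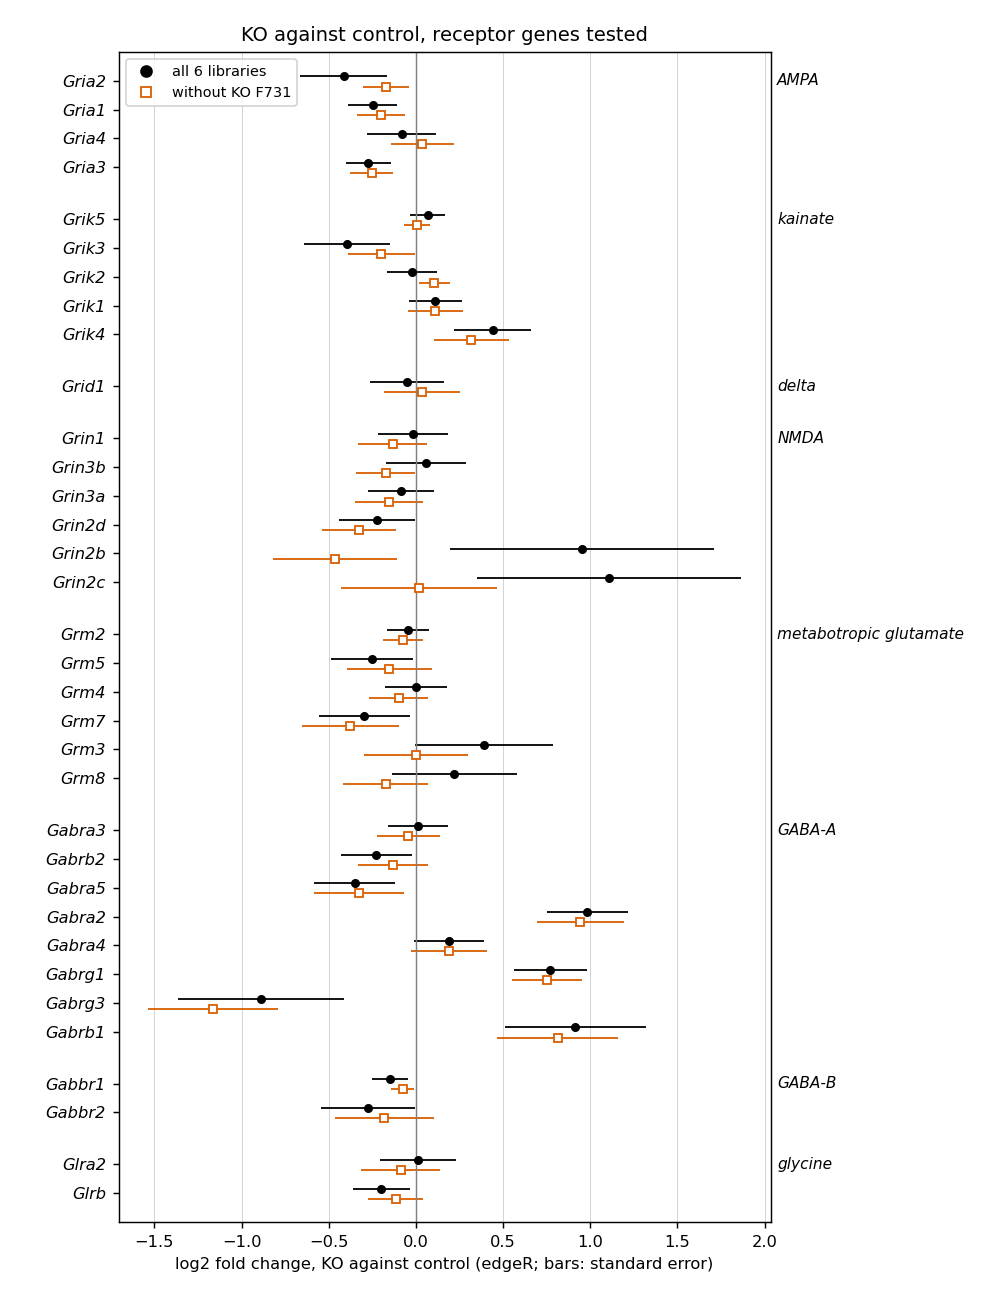
Log2 fold change of KO against control with its standard error for the 34 receptor genes described and tested, over all 6 libraries (black) and without KO F731 (open orange squares), by family. Most values lie within 0.5 of 0, *Gabra2*, *Gabrg1* and *Gabrb1* lie well to the right in both fits, and *Grin2b* and *Grin2c* are to the right only while KO F731 is included.

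Of the 9 GABA-A genes described, 4 lie in a cluster on chromosome 5 of mm10. They were grouped this way with the fold changes known. The cluster runs from 70751047 to 72149037 and holds *Gabrg1*, *Gabra2*, *Gabra4* and *Gabrb1*. All 4 had log2 fold changes above 0, from 0.19 to 0.98. Of the others, *Gabra3* was at 0.01, *Gabrb2* at -0.23, *Gabra5* at -0.35 and *Gabrg3* at -0.89, and *Gabra6* had too few counts for the test.

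*Gabra2* encodes an alpha subunit found in the embryonic forebrain and, later, on the first segment of the axon. The gene lies on the minus strand of chromosome 5, from 70957597 to 71095849. Its counts were 1437, 1070 and 509 in KO and 421, 802 and 599 in control, which are 39.5, 25.2 and 35.1 CPM and 12.2, 17.9 and 20.4 CPM. The lowest KO library, F728, was above the highest control, F725. The mean was 33.3±7.32 CPM in KO and 16.8±4.17 in control, a ratio of 1.98. The log2 fold change was 0.98 (s.e. 0.23, unadjusted *P*=0.00324, adjusted *P*=0.863, edgeR), and it ran from 0.79 without control F722 to 1.15 without KO F728. In DESeq2 the adjusted *P*-value was 0.0691 over all 6 libraries. It was 0.0465 without KO F731, where 0.206% of the genes passed, and 0.0144 without KO F728, where 0.204% passed. The call of *Gabra2* therefore rested on the tool and on which KO library was left out, while its direction was the same in every fit.

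*Gabrg1* encodes a gamma subunit. It is next to *Gabra2* on the same strand, from 70751047 to 70842617. Its counts were 124, 124 and 48 in KO and 56, 84 and 63 in control, which are 3.41, 2.92 and 3.31 CPM and 1.63, 1.87 and 2.14 CPM. The groups were apart, with a ratio of means of 1.71. The log2 fold change was 0.77 (s.e. 0.21, unadjusted *P*=0.00676, adjusted *P*=0.863, edgeR), between 0.67 and 0.87 with any 1 library left out. In DESeq2 its unadjusted *P*-value was 0.0213 and its adjusted one 0.960.

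*Gabrb1*, a beta subunit gene at the far end of the cluster, from 71658113 to 72149037 on the plus strand, was near the limit of detection. Its counts were 29, 25 and 13 in KO and 11, 15 and 16 in control, or 0.798, 0.589 and 0.895 CPM against 0.319, 0.335 and 0.544. The groups did not overlap, by a small margin (log2 fold change 0.91, s.e. 0.40, unadjusted *P*=0.0554, edgeR). Per length, KO F731 held 0.0647 CPM/kb of it, where the odorant and vomeronasal receptor genes pooled held 0.0429. *Gabra4*, an alpha subunit gene on the minus strand from 71569749 to 71658308, overlaps the start of *Gabrb1* on the opposite strand. It had 6.57, 4.93 and 5.78 CPM in KO and 5.31, 3.99 and 5.88 in control, which overlapped (log2 fold change 0.19, s.e. 0.20).

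**Figure D3:**
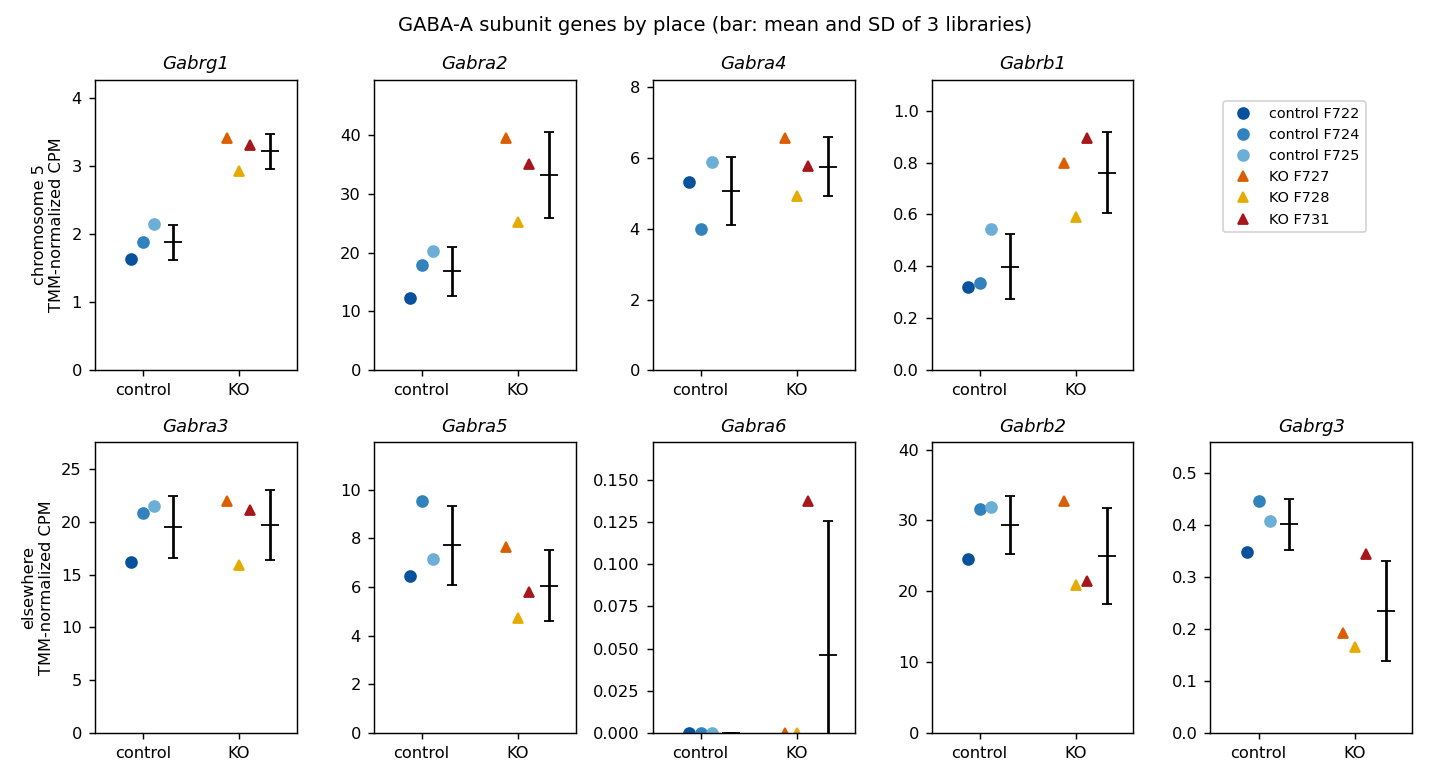
TMM-normalized CPM of the 9 GABA-A subunit genes described, with the 4 of the chromosome 5 cluster in the top row, the others below and each axis from 0; circles are control and triangles KO libraries, and the bar gives the mean and s.d. of 3 libraries. In the top row *Gabrg1*, *Gabra2* and *Gabrb1* have all KO libraries above all controls and *Gabra4* does not, and in *Gabra6* the only reads are those of KO F731.

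The other genes within the cluster on chromosome 5 and up to 1 Mb from it were looked at after these values had been seen. The table held 14, of which 10 were tested. *Cox7b2*, which lies between *Gabra2* and *Gabra4*, had too few counts. Their log2 fold changes were above 0 in 5 and below 0 in 5, and ran from -0.84 to 1.68. *Nipal1*, a magnesium transporter family gene, had the highest (s.e. 0.69, unadjusted *P*=0.0435, edgeR), with counts of 19, 14 and 20 in KO and 7, 5 and 10 in control, and its CPM overlapped between groups. Without KO F731 its log2 fold change was 1.02. *Slc10a4*, a gene of the bile acid transporter family that is found on synaptic vesicles, had the lowest (s.e. 0.31, unadjusted *P*=0.0281, edgeR). These were the 2 at an unadjusted *P*-value under 0.05, against 1.92% of all genes tested. *Commd8* was the only one whose groups did not overlap, by a narrow gap (log2 fold change 0.16, s.e. 0.11, and 0.089 without KO F731), against 7.41% of all genes tested.

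The 250 bases before the start of *Gabra2* and of *Gabrg1* are shown because these neighbours had the smallest *P*-values of the receptor genes and differ in base composition. They were taken from RefSeq on GRCm38.p6, at chr5:71095850-71096099 and chr5:70842618-70842867, and both are written 5′ to 3′ on the minus strand. Capitals mark matches on either strand to GGGCGG, the core of the GC box, or to CCAAT, which reads ATTGG where the match is on the other strand.
Gabra2: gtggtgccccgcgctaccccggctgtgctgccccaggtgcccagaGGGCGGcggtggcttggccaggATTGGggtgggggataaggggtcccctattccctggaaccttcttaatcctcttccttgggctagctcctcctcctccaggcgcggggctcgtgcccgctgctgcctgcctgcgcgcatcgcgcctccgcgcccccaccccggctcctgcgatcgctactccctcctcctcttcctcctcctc
Gabrg1: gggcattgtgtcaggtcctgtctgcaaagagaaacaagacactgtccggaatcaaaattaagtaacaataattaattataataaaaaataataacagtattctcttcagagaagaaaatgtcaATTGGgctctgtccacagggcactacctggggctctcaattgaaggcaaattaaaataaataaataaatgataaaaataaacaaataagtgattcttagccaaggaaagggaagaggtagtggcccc
The *Gabra2* stretch was 70.0% G and C and held 1 match to each of these motifs. The *Gabrg1* stretch was 35.6% G and C and held 1 match to CCAAT. The median over 32841 promoters was 52.4%. Of those promoters, 32.7% held GGGCGG and 33.9% CCAAT in the same length. The TATA box TATAAA (12.4% of promoters) and the cyclic AMP element TGACGTCA (1.55%) were searched on both strands and had no match in either. The matches did not overlap each other.

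The shares of the alpha subunits followed these values. Per length, *Gabra2* made up 35.8%, 33.9% and 35.5% of the summed level of the 5 alpha genes described in KO and 18.3%, 20.3% and 23.1% in control. With the GENCODE exon lengths, *Gabra3* was the largest of the 5 in every library, with 46.9%±0.724 in control and 40.7%±1.58 in KO. The shares depend on the lengths. In control, *Gabra3* and *Gabra2* stood at 4.97 and 2.20 CPM/kb with these lengths, and at 4.79 and 3.33 with exon lengths from RefSeq. KO shares were not computed with other lengths, so which of these 2 genes was the larger in KO is not settled. *Gabra5* made up 17.8%, 16.3% and 15.05% in KO and 24.8%, 27.9% and 20.9% in control, so its share did not overlap between groups although its CPM did. Shares add up to 100%, so a higher share of 1 subunit lowers the others. *Gabra5* itself, which encodes the alpha subunit of receptors mostly outside synapses, had a log2 fold change of -0.35 (s.e. 0.23).

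**Figure D4:**
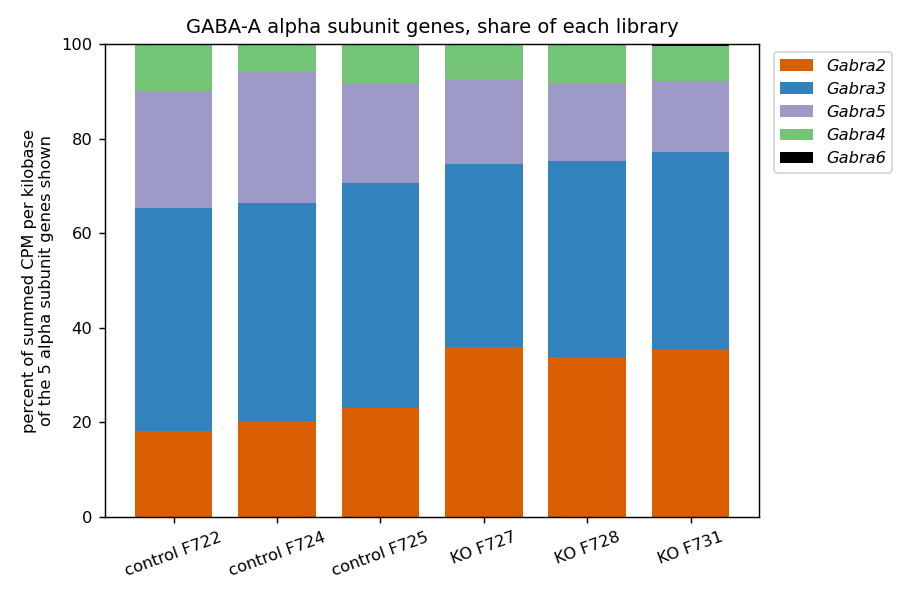
Share of each alpha subunit gene in the summed CPM per kilobase of the 5 alpha genes described, as 1 stacked bar per library in percent. The orange part, *Gabra2*, reaches 33.9% to 35.8% in the 3 KO libraries and 18.3% to 23.1% in the 3 controls.

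*Gabrg3*, a further gamma subunit gene, had counts of 7, 7 and 5 in KO and 12, 20 and 12 in control. Its CPM was 0.193, 0.165 and 0.344 in KO and 0.348, 0.446 and 0.408 in control, so that the groups only just missed each other at KO F731 and control F722. Its log2 fold change was -0.89 (s.e. 0.47, unadjusted *P*=0.0998), and -1.16 without KO F731 (unadjusted *P*=0.0162, edgeR).

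KO F731 had the highest CPM of all 6 libraries in 15 of the 40 receptor genes described. Of the 13 with a mean under 3 CPM in control it was the highest in 11, and of the 27 at or above 3 CPM in 4. The odorant and vomeronasal receptor genes pooled had 0.0429 CPM/kb in KO F731 and 0.000595 to 0.000762 in the other libraries. *Grin2b* stood at 0.410 CPM/kb in KO F731, 9.57 times this background, and at 0.0436 to 0.104 in the others. Its log2 fold change was 0.95 (s.e. 0.76) over all libraries and -0.46 without KO F731. *Grin2c* stood at 0.437 CPM/kb in KO F731, and its log2 fold change went from 1.11 (s.e. 0.76) to 0.02. *Grm6* had 0.343 CPM/kb in KO F731 and at most 0.0165 elsewhere, and its unadjusted *P*-value in DESeq2 was 0.0229 (adjusted 0.960). Its log2 fold change in that fit was 3.90, and 0.26 without KO F731 (unadjusted *P*=0.899). *Glra1* had 0.257 CPM/kb in KO F731 and 0 elsewhere. *Gabra6* and *Grin2a*, at 0.0553 and 0.0461 CPM/kb, were close to the background of the same library. *Gabrg3* and *Glra3* lay below it in KO F731, at 0.0289 and 0.0150 CPM/kb. The part of this background in the values of KO F731 was not tested.

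**Figure D5:**
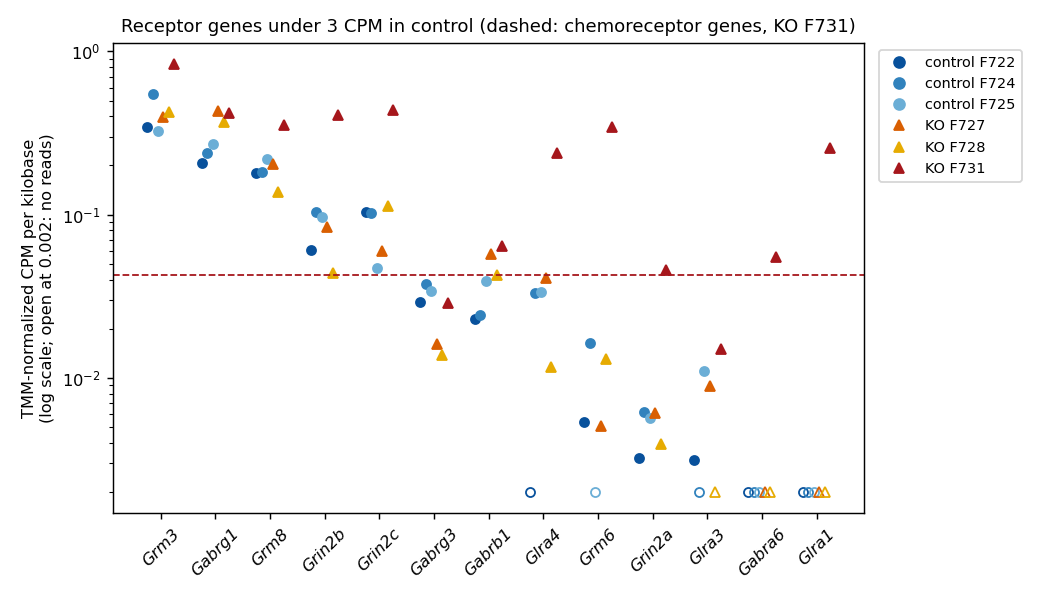
TMM-normalized CPM per kilobase on a log axis for the 13 receptor genes described that were under 3 CPM in control; circles are control and triangles KO libraries, open symbols mark no reads, and the dashed line is the pooled level of odorant and vomeronasal receptor genes in KO F731, 0.0429. KO F731 is the highest library in 11 of the 13, the exceptions being *Gabrg1* and *Gabrg3*.

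The genes that make, release, clear and place these transmitters and receptors were read from 7 lists of 67 genes, of which 62 were tested. Log2 fold changes were above 0 in 16 and below 0 in 46, with a median of -0.10. None passed the adjusted threshold in edgeR or DESeq2, where 0% and 0.115% of all genes did. At an unadjusted *P*-value under 0.05 there was 1 lower gene and 0 higher, against 0.665% and 1.26% of all genes. The lower one was *Slc6a11*, which encodes the GABA transporter GAT3. Its CPM was 3.93, 3.98 and 5.23 in KO and 6.97, 7.61 and 5.47 in control. Every KO library was below every control, by a small gap between KO F731 and control F725 (log2 fold change -0.63, s.e. 0.20, unadjusted *P*=0.0139, edgeR). Without KO F731 it was -0.76 (unadjusted *P*=0.00443, edgeR).

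The groups of libraries did not overlap in 3 further genes of these lists, which makes 4 of 62, against 7.41% of all genes tested. *Dlg4*, for the postsynaptic scaffold PSD-95, was at 177, 164 and 149 CPM in KO and 177, 191 and 195 in control (log2 fold change -0.20, s.e. 0.10, and -0.14 without KO F731). *Adar*, an enzyme that edits RNA, was at 82.9, 86.2 and 70.3 CPM in KO and 87.3, 90.7 and 97.2 in control (log2 fold change -0.20, s.e. 0.11, and -0.12 without KO F731). *Slc1a6*, a glutamate transporter gene, was at 3.08, 3.04 and 5.16 CPM in KO and 2.5, 2.37 and 2.92 in control (log2 fold change 0.51, s.e. 0.26, and 0.24 without KO F731). The gaps were small in all 3.

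The chloride transporters that set the effect of GABA and glycine were both expressed. *Slc12a2*, for NKCC1, which brings chloride in, was at 55.6, 50.5 and 45.9 CPM in KO and 51.3, 56.6 and 56.6 in control. *Slc12a5*, for KCC2, which carries it out, was at 26.5, 20.2 and 18.0 CPM in KO and 20.03, 24.3 and 31.2 in control. *Gad1*, which makes GABA, was at 52.9, 56.8 and 40.8 CPM in KO and 49.0, 59.8 and 74.4 in control. The groups overlapped in all 3. *Slc6a5*, the glycine transporter of glycinergic neurons, had reads only in KO F731, at 1.03 CPM.

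Of 18 auxiliary subunit genes, 17 were tested, 5 above 0 and 12 below. *Shisa9*, an AMPA receptor partner, had the smallest *P*-value of them, at 11.6, 9.78 and 8.26 CPM in KO and 5.52, 8.48 and 7.75 in control (log2 fold change 0.45, s.e. 0.21, unadjusted *P*=0.0605, edgeR, and 0.56 with unadjusted *P*=0.0261 without KO F731). *Shisa7* and the AMPA partner *Cacng7* had log2 fold changes of -0.31 and -0.39 (s.e. 0.18 and 0.26). *Cacng7* was at 25.5 CPM in KO F731 and at 51.1 to 60.5 in the other libraries, and without KO F731 its log2 fold change was -0.13. Of 16 scaffold genes 14 were below 0, with a median of -0.13, and of -0.056 without KO F731. Of all genes tested, 7630 were below 0 and 7397 above. The markers of excitatory cortical neurons, the GABAergic lineage and intermediate progenitors given beside the AMPA genes were also below 0. Of the 3 markers each of Cajal-Retzius cells and thalamus, 2 were above 0. For radial glia 2 of 5 were above 0, and for forebrain identity 1 of 6. The part of these markers in the scaffold values was not tested. The other GABA-A subunit genes, outside the symbol rule, were low, and 1 of 7, *Gabrq*, was at 1 CPM or more in every control library.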

How the data were processed

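RNA from E13.5 forebrain of 3 *Prdm16* KO and 3 control embryos was sequenced. After trimming (Trimmomatic) and alignment to mm10 (HISAT2), the authors deposited raw counts per gene of the iGenomes UCSC annotation, with no normalization (16638433 to 43066648 per library). For the whole series, the submitters' processing notes also list HOMER 4.10, limma, Bowtie2 and DESeq2. How reads were assigned to genes (program, strand, multiple matches) is not given in the sources used here. Values of overlapping or closely similar genes are therefore uncertain. The labels name poly(A) RNA, whereas the methods name a total RNA kit. Of the columns of samples, 6 matched the RNA-seq groups by name and 18 others were not used. The matching columns carry animal numbers but no replicate numbers of the labels, and were used as unnumbered biological replicates. No pair of libraries held identical counts. ChIP-seq and ATAC-seq data were not analysed here.

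Counts were tested in R 4.3.3 with edgeR 4.0.16 (filterByExpr with a minimum count of 10, TMM, glmQLFit with robust set, glmQLFTest), which kept 15027 genes. Benjamini-Hochberg adjustment ran over all of them, with a threshold of 0.05. The s.e. was computed as |log2 fold change|/√F. The study used DESeq2, which served here as an alternative (1.42.0), as did limma-voom (limma 3.58.1), RLE and upper-quartile scaling, other filters and leaving out each library. Sample quality weights and RefSeq exon lengths were chosen after seeing the data. The tests were tried on simulated counts. Lengths are union exons of GENCODE vM21, matched by symbol (23376 of 24421 genes, all receptor genes described). Of the 45 receptor genes, the results of 5 are not reported here, and counts of receptor genes leave them out. Genes given library by library were the 3 highest per length of each family, those with an unadjusted *P*-value under 0.05 in edgeR or DESeq2, those whose groups did not overlap, and, of the other lists, up to 3 with the smallest *P*-values. Further low genes, cluster genes and transporters were picked with their values known. The members and lists were chosen with earlier results of these data known.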

Additional observations from a re-analysis of the deposited data

How the results depend on the processing

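No receptor gene described passed the adjusted threshold in edgeR under any scaling, filter or library left out, nor in limma-voom, and the count with 1 library left out ran from 0 to 1. The 1 was *Gabra2* in DESeq2 without KO F728 or without KO F731. The count of receptor genes at an unadjusted *P*-value under 0.05 was 2 (1.92% of all genes), rose to 7 with sample quality weights in limma-voom (7.25%), and ran from 2 to 7 with 1 library left out, the 7 in edgeR without KO F727 (6.56%). The count over all genes at the adjusted threshold was 0 in edgeR, 18 in DESeq2, 12 with sample quality weights and 1 without a filter on low counts, and ran from 0 to 33 with 1 library left out. Signalling genes past it stayed at 0 in each fit. The number of genes expressed in control ran from 25 to 31 over the other bounds.

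Of 435 alternative values of 23 named genes, 374 kept direction and side of the threshold, 2 passed it (*Gabra2*) and 59, in 10 genes that no fit called, changed sign. With sample quality weights the log2 fold change was -0.19 for *Gabra3*, -0.25 for *Glra2*, 0.044 for *Grik2* and -0.12 for *Grin3b*. In limma-voom it was -0.0090, -0.041 and -0.053 for *Gabra3*, *Glra2* and *Grin3b*. DESeq2 gave -0.0052 for *Gabra3* and -0.0065 for *Glra2*. Without a filter it was -0.031 for *Gabra3* and -0.035 for *Glra2*. Upper-quartile scaling gave 0.0012 for *Grik2*, 0.015 for *Grin1* and 0.029 for *Grm4*, a filter of 1 CPM gave 0.0061 for *Grin1* and 0.020 for *Grm4*, and RLE gave 0.0047 for *Grm4*. With 1 library left out the value ran from -0.12 to 0.14 for *Gabra3*, -0.16 to 0.21 for *Glra2*, -0.31 to 0.041 for *Gria4*, -0.25 to 0.13 for *Grid1*, -0.19 to 0.10 for *Grik2*, -0.15 to 0.16 for *Grin1*, -0.22 to 0.050 for *Grin3a*, -0.18 to 0.21 for *Grin3b*, -0.11 to 0.0057 for *Grm2* and -0.11 to 0.15 for *Grm4*. The cause was not tested. No paired analysis was possible because the columns carry no replicate numbers of the labels. The depth of KO F731, 16638433 counts, limits what can be said of genes with a few counts.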
